A study of Mus musculus with 6 samples.

Results

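The genes described here encode the machinery that releases neurotransmitter from synaptic vesicles and the scaffold that holds receptors on the receiving side. They were 37 genes given by name, and 36 of them were measured among 18194 genes on the arrays; Shank2, a scaffold gene, was not matched to a probe set and was not analysed here. A probe set is a group of short probes against 1 transcript. A gene was read from the probe sets annotated with its symbol alone, and the brightest of these, by its mean over the 6 arrays, was taken to represent it.

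Gene expression was measured on 6 one-colour arrays of RNA from the subventricular zone, the stem cell niche along the lateral ventricle, in C57BL/6 mice that were adult and male. The 3 MCAO arrays held the zone on the injured side 48 h after middle cerebral artery occlusion, a stroke model that blocks the artery supplying the striatum and lateral cortex. The 3 sham arrays held the same zone 48 h after sham surgery. The labels name no transgene or drug and do not say how long the artery was blocked. They also do not say whether the arrays came from separate mice. The p-values therefore rest only on variation among these arrays, part of which may be technical. For each gene this variation was its own, drawn toward that of all genes on the same arrays.

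Release begins when a vesicle docks at the active zone, a protein mesh built around bassoon, piccolo, RIM and Munc13. SNARE proteins on the vesicle (synaptobrevin) and on the cell membrane (syntaxin and SNAP-25) zip together, complexin clamps the assembled bundle, and synaptotagmin, sensing calcium, triggers fusion; NSF and its adaptors then pull the SNAREs apart for reuse. Across the cleft, neuroligins bind presynaptic neurexins, while the PSD-95 family, Shank and Homer proteins anchor glutamate receptors beside the kinase CaMKII. In the striatum, which lies against this zone, most neurons release GABA.

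Markers of most cell types examined lay above the median gene of the array, so that level does not tell which tissue was dissected. Of 11 measured markers of striatal neurons, all 11 lay above it, as did 7 of 8 neuroblast markers and 6 of 6 ependymal markers. So did 14 of 14 general neuronal, 9 of 9 astrocyte, 7 of 7 oligodendrocyte and 8 of 9 microglial markers. The counts were 4 of 5 for oligodendrocyte precursors, 4 of 6 for endothelium, 2 of 5 for choroid plexus and 2 of 6 for cortical neurons. Of the 36 synaptic genes, 33 lay above the median gene. The exceptions were Slc17a6, Slc17a7 and Shank1. The arrays numbered 1 in both groups stood apart from the other 4 along the component holding 40.8% of the variance, and their poly-A labelling controls averaged 7.69 and 7.96 log2 against 8.65 to 9.23 on the others. The meaning of the sample numbers is not in the labels, so results were computed without and with a block for the number, which compares MCAO and sham arrays of the same number.

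Most of the synaptic genes read slightly lower in MCAO tissue, and none passed the test without the block. Of the 36, 32 had a lower mean in MCAO, against 52.3% of all genes and 55.8% of genes above the median gene. The median difference was −0.16 log2, or a level 10.6% lower, where the median over all genes was −0.0065. In limma's fit, adjusted over all genes by Benjamini-Hochberg, 0 of 36 passed an adjusted p of 0.05 in either direction; of all genes 0.0165% passed as lower and 1.12% as higher. At an unadjusted p under 0.05 the count was 6 lower (Snap25, Syt1, Pclo, Dlg2, Dlg3 and Camk2a) and 0 higher, against 2.46% of all genes lower. With the block, 3 fell (Dlg2, Camk2a and Cplx2) and 0 rose, where 1.3% of all genes fell and 4.82% rose. Applied to the deposited values without further normalization, the block left 2 that fell (Dlg2 and Camk2a; 0.28% of all genes). Without MCAO 1 and no block the same 2 genes passed (0.115% of all genes fell), and also without both arrays numbered 1 (0.143%). The block fitted without number 1, 2 or 3 in turn called 3, 6 and 1 of the 36 as lower, while 0.698%, 3.02% and 0.319% of all genes were called lower in those fits. The 95% interval of the difference excluded a fall of 1 log2 or more, a 2-fold loss, for 32 of the 36 genes; the other 4 were Dlg2, Dlg4, Shank3 and Camk2a.

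**Figure D1:**
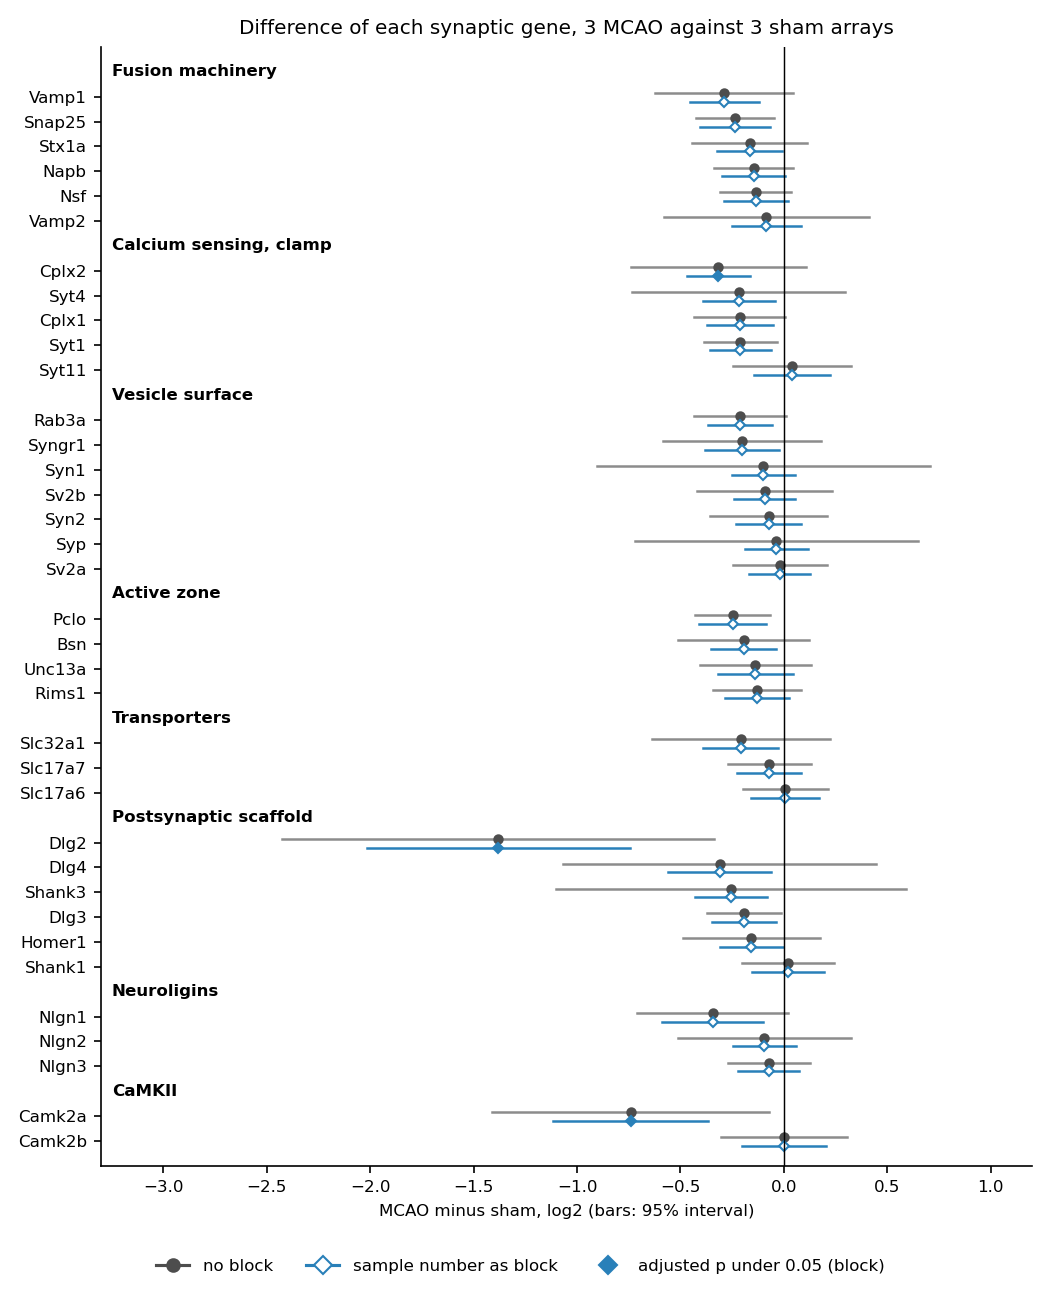
MCAO minus sham difference (x axis, log2) of the 36 measured synaptic genes, grouped by role, with 95% intervals from the fit without a block (grey circles) and from the fit that pairs sample numbers (blue diamonds, filled where the adjusted p is under 0.05). Most points lie a little left of 0, 4 lie at or right of it, and Dlg2, Camk2a and Cplx2 are filled.

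The distribution as a whole was displaced by a small amount. The middle 50% of the synaptic genes lay between −0.22 and −0.083 log2, and that of all genes between −0.077 and 0.071. In 8 genes all 3 MCAO arrays lay below all 3 sham arrays (Snap25, Nsf, Napb, Syt1, Rab3a, Pclo, Dlg2 and Dlg3), and in 0 genes above; over all genes these shares were 5.37% and 8.44%. Within same-numbered arrays, 27 of the 36 were lower in all 3 pairs and 0 were higher in all 3, against 19.9% and 20% of all genes and 27.5% lower among genes above the median gene. Single pairs gave similar medians, at −0.11, −0.17 and −0.15 for numbers 1, 2 and 3, with 33, 29 and 35 genes lower. Of all 18194 genes, 9055, 10379 and 8178 were lower in these pairs, with medians of 0.0005, −0.027 and 0.021. The count of 32 lower genes was 26 without MCAO 1 and 26 without sham 3, and it reached 35 without MCAO 3.

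**Figure D2:**
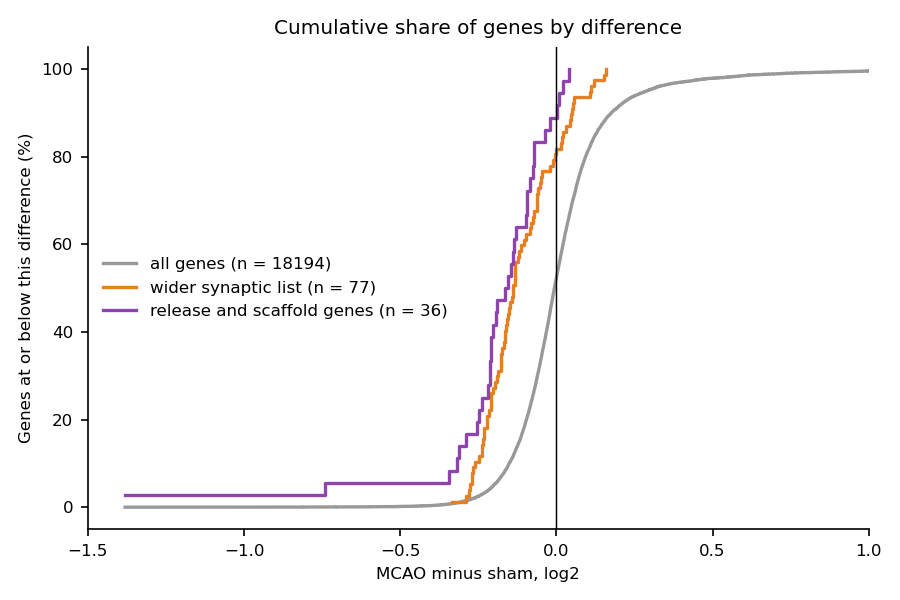
Share of genes (y axis, percent) at or below each MCAO minus sham difference (x axis, log2) for the 36 release and scaffold genes, 77 other synaptic genes and all 18194 genes. The synaptic curves are shifted left of the curve of all genes by a small amount, and the purple curve has 2 genes, Dlg2 and Camk2a, far to the left; genes above 1 log2 lie outside the axis.

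Promoter sequence was examined because many neuronal genes share RE1, the element through which the repressor REST keeps them silent outside neurons. RefSeq windows of GRCm38.p6, from 250 bases before to 50 after each start site, were found for 30 of the 37 genes (44 windows). The left part of RE1, TTCAGCACC on either strand, stood in 3 of these windows (Syn1, Nlgn1 and Unc13a), or 6.82%, and in 0.371% of all 32851 windows. The full cyclic AMP response element TGACGTCA stood in 1 window (Syn1; 1.79% of all), and GCGTGGGCG, bound by EGR1, in 2 (Shank3 and Unc13a; 0.612% of all). The motifs do not overlap one another in these windows. The 250 bases before the start site are shown for Syn1 and Nlgn1, which carry the RE1 part there, 5′ to 3′ on the minus strand, with the motifs in capitals: in Syn1 the RE1 part and then the response element, in Nlgn1 the RE1 part alone. They lie at chrX:20920919-20921168 and chr3:26153987-26154236.
Syn1: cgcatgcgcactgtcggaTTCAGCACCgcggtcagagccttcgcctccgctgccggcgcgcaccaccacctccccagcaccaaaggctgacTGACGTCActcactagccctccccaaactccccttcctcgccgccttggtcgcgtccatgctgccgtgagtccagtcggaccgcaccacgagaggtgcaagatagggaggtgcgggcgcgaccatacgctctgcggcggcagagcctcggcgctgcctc
Nlgn1: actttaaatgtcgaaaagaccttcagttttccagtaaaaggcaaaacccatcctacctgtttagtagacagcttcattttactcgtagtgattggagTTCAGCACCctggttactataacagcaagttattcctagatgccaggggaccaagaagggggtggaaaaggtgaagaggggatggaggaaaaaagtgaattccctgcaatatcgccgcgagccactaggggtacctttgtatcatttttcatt
Neither Syn1, Nlgn1 nor Unc13a passed the test with or without the block, at −0.098, −0.34 and −0.14. A match describes letters in a window and shows nothing about binding.

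All 6 genes of the fusion machinery read lower, and none passed. Snap25, the SNARE of the presynaptic membrane most used as a neuronal marker, read 12.07, 12.19 and 12.16 log2 in MCAO 1, 2 and 3 and 12.42, 12.26 and 12.45 in sham 1, 2 and 3. Its groups did not overlap, though MCAO 2 and sham 2 lay only 0.073 apart, and the difference was −0.24 ± 0.081 (SE, n = 3 per group; limma adjusted p = 0.377, and 0.110 with the block). Vamp1 and Vamp2 encode synaptobrevins, and their differences were −0.29 for Vamp1 (limma adjusted p = 0.671, and 0.0506 with the block) and −0.086 for Vamp2. Of the 2 probe sets of Vamp1 only 1 read lower, and the dimmer one, at a sham mean of 6.20, read 0.033. Stx1a, the syntaxin of the release site, read −0.17. Nsf, the ATPase that separates used SNAREs, read −0.14 and Napb, its neuronal adaptor, −0.15, both without overlap between the groups.

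Among calcium sensors and clamps, each read by its brightest probe set, Cplx2 was the gene with a call under the block. Cplx2 encodes a complexin, and its log2 levels were 10.69, 11.00 and 11.33 in MCAO and 11.07, 11.33 and 11.58 in sham. The groups overlapped because the arrays numbered 1 were lowest and those numbered 3 highest in both, yet each MCAO array lay below its sham counterpart, by 0.38, 0.33 and 0.24. The difference of −0.32 had an SE of 0.182 without the block and 0.0683 with it (limma adjusted p = 0.761 and 0.0224). The probe set may also bind related transcripts; Cplx2's other probe sets read −0.40 and −0.26, and −0.40 passed with the block over all probe sets (adjusted p = 0.0265). On the values as deposited the Cplx2 difference was −0.25 and did not pass with the block (adjusted p = 0.169). Of the other complexins, Cplx1 read −0.21 and Cplx3, from a wider list of synaptic genes, −0.064 at a level below the median gene. A dimmer Cplx1 probe set, at −0.31, passed with the block over all probe sets (limma adjusted p = 0.0447).

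Syt1, the calcium trigger of fast release, lay at 11.91, 11.82 and 11.98 log2 in MCAO and 12.11, 12.07 and 12.16 in sham. Its groups did not overlap, and all 3 pairs were 0.18 to 0.25 lower in MCAO, a difference of −0.21 ± 0.076 (SE, n = 3 per group; limma adjusted p = 0.418, and 0.105 with the block). Its other 3 probe sets were lower as well, from −0.17 to −0.44. The probe set at −0.44 passed with the block over all probe sets (limma adjusted p = 0.0194). Syt4, a synaptotagmin induced by neuronal activity, read −0.22 with levels that varied more by sample number than by group. Syt11, a relative that does not bind calcium, had the highest difference of all members, at 0.040, with 10.82, 10.66 and 10.84 in MCAO and 10.62, 10.58 and 11.00 in sham. The MCAO values of Syt11 lay inside the sham range, with an interval from −0.25 to 0.33, and 2 of its 5 probe sets read lower.

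The genes of vesicle surface proteins were only slightly lower, and none passed. All 7 had a lower mean, with a median of −0.093 and a range from −0.019 for Sv2a, a vesicle glycoprotein, to −0.21 for Rab3a, the small GTPase that tethers vesicles. Rab3a was read by a probe set that may bind related transcripts, as was Stx1a. Syn1, a synapsin that ties vesicles to actin, read 8.85, 9.71 and 9.94 log2 in MCAO and 8.93, 9.88 and 9.98 in sham. Both arrays numbered 1 were about as far below the others of their group (0.97 in MCAO and 1.01 in sham), so the interval without the block ran from −0.90 to 0.71, and with it from −0.25 to 0.054 around a difference of −0.098. Syp, which encodes the vesicle membrane protein synaptophysin, had the same shape: 8.61, 9.53 and 9.41 in MCAO against 8.67, 9.49 and 9.50 in sham, a difference of −0.037.

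Syngr1, a vesicle membrane protein of the synaptogyrin family, was read in opposite directions by its probe sets. The brightest gave −0.20 ± 0.165 (SE, n = 3 per group). Another, 1419289_a_at, read 7.77, 7.58 and 7.70 in MCAO and 6.97, 7.19 and 7.26 in sham, with no overlap and a difference of 0.54 ± 0.0973 (adjusted p over all probe sets = 0.0723 by limma, and 0.00970 with the block). The third gave 0.012. The direction of Syngr1 thus depends on the probe set read, and the mean of its probe sets gave 0.12.

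Active zone genes were lower in every member and in every same-numbered pair. Pclo, which encodes the giant scaffold piccolo, had the smallest adjusted p of all 36 genes without the block, with 9.97, 9.94 and 10.02 log2 in MCAO against 10.34, 10.17 and 10.17 in sham. The groups did not overlap, and the difference was −0.25 ± 0.079 (SE, n = 3 per group; limma adjusted p = 0.322, and 0.0785 with the block). Bsn, encoding its partner bassoon, read −0.19, Unc13a, the vesicle-priming Munc13 gene, −0.14, and Rims1, which recruits calcium channels, −0.13.

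The vesicular transporters mark which transmitter a neuron releases. Slc32a1, the transporter of GABA and glycine, read 9.33, 9.90 and 9.93 log2 in MCAO and 9.69, 9.91 and 10.18 in sham. MCAO 1 was the lowest array, the other MCAO arrays lay among the sham values, and the difference was −0.21 ± 0.186 (SE, n = 3 per group). The glutamate transporter genes lay below the median gene of the array. Slc17a7, the form of cortical neurons, read 6.26 to 6.38 in MCAO and 6.32 to 6.53 in sham, and Slc17a6, the form of thalamic and other subcortical neurons, read 5.93, 5.96 and 5.98 against 5.89, 5.84 and 6.11. Their differences of −0.071 and 0.0070 had intervals from −0.27 to 0.13 and from −0.20 to 0.21.

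The scaffold gene Dlg2, encoding PSD-93 of the PSD-95 family, had the most negative difference of all 18194 genes. Its log2 levels were 9.69, 7.62 and 8.21 in MCAO and 9.87, 9.89 and 9.91 in sham. The sham arrays were close together, MCAO 1 lay just beneath them, and MCAO 2 and MCAO 3 lay far below. The difference was −1.38, with limma's SE of 0.45 without the block and 0.286 with it (n = 3 per group, limma adjusted p = 0.339 and 0.0188). Dlg2's own SD was 1.07 in MCAO and 0.020 in sham, and its pair differences were −0.175, −2.27 and −1.70. The variance behind the SE with the block was drawn toward that of all genes, with 8.116 prior against 2 residual degrees of freedom. The call with the block depends on that step. Without MCAO 1 it was −1.97 and passed (adjusted p = 0.00237), and without MCAO 2 it was −0.94 (adjusted p = 0.636). With both arrays numbered 3 left out, the block gave −1.22 and no call (adjusted p = 0.0873).

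The other probe sets of Dlg2 gave smaller and more even differences; adjusted over all probe sets, the brightest passed with the block too (0.0348). Probe set 1421200_at read 6.79, 6.62 and 6.51 in MCAO and 7.12, 7.19 and 7.03 in sham, a difference of −0.47 ± 0.0936 (SE, n = 3 per group; limma adjusted p over all probe sets = 0.103, and 0.00797 with the block). Probe set 1421199_at read 7.33, 7.10 and 7.01 against 7.65, 7.46 and 7.34, a difference of −0.34 (adjusted p = 0.0275 with the block). For all 3 probe sets of Dlg2 every MCAO array lay below every sham array, and with their mean taken the difference was −0.73. The direction therefore held across probe sets, and the size did not.

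Camk2a, the alpha subunit of CaMKII and a messenger carried into dendrites, had a similar profile. Its brightest probe set read 10.77, 9.45 and 10.08 log2 in MCAO and 10.85, 10.70 and 10.98 in sham. MCAO 2 and MCAO 3 were low, and MCAO 1 lay within the sham range. The difference was −0.74 ± 0.288 (SE, n = 3 per group; limma adjusted p = 0.481, and 0.0291 with the block), with pair differences of −0.070, −1.25 and −0.90. Without MCAO 1 it was −1.08 and passed (adjusted p = 0.0383), without MCAO 2 it was −0.42 (adjusted p = 0.785), and with both arrays numbered 3 left out the block gave −0.66 and no call (adjusted p = 0.127). Camk2a's own SD was 0.66 in MCAO and 0.14 in sham. As for Dlg2, the variance behind the SE with the block was drawn toward that of all genes, and the call with the block depends on that step.

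Of the 6 Camk2a probe sets, 6 read lower in MCAO, from −0.022 to −0.74. Probe set 1437125_at repeated the profile of the brightest, with −0.25, −1.03 and −0.86 within the pairs, and passed with the block over all probe sets (limma adjusted p = 0.0150), where the brightest did not (0.0522). Probe set 1452453_a_at gave near equal pair differences of −0.36, −0.36 and −0.35 and passed as well (0.0204). With the mean of its probe sets Camk2a read −0.36. Camk2b, the beta subunit, differed by 0.0009 with an interval from −0.30 to 0.30; it has 1 probe set here.

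**Figure D3:**
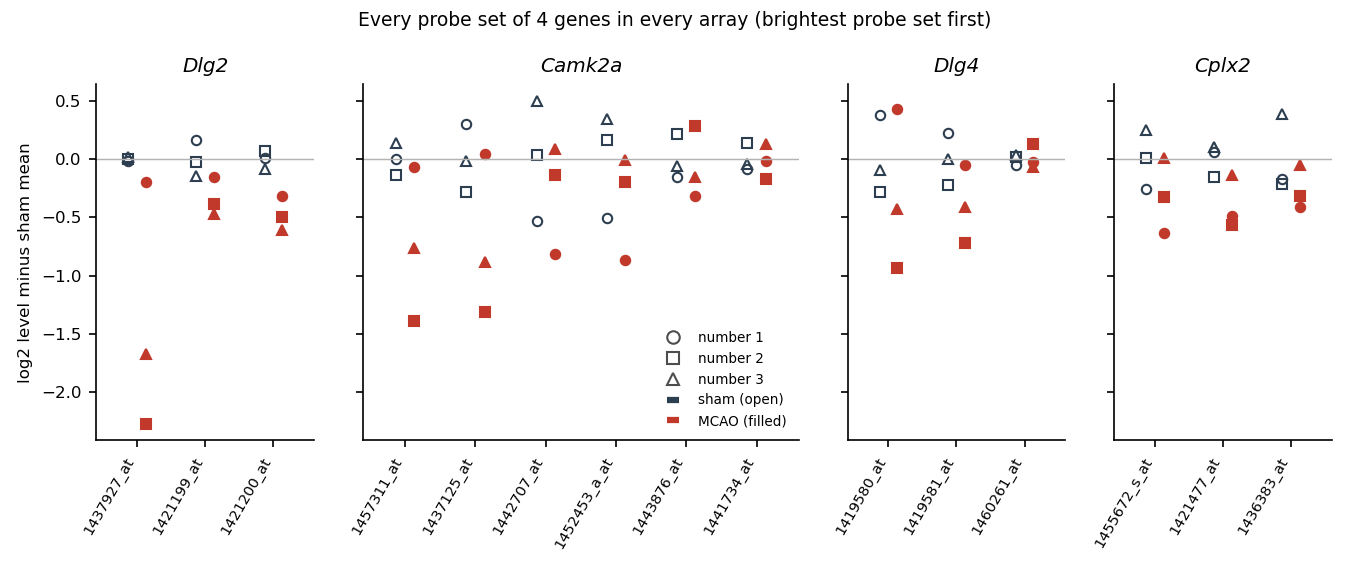
log2 level minus the sham mean of the same probe set (y axis) for every probe set (x axis) of Dlg2, Camk2a, Dlg4 and Cplx2, with sham arrays open, MCAO arrays filled and the sample number as the symbol. MCAO 2 and MCAO 3 lie far below sham in the brightest probe sets of Dlg2 and Camk2a, while the other Dlg2 probe sets show smaller gaps without overlap.

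The remaining scaffold genes and the neuroligins did not pass. Dlg4, which encodes PSD-95, read −0.31 with pair differences of 0.052, −0.65 and −0.33, and its second probe set, at −0.39, passed with the block (adjusted p over all probe sets = 0.0188 by limma). Dlg3, encoding SAP102, read −0.19 without overlap between the groups, and Homer1, a link between Shank and metabotropic receptors, −0.16 with 6 of 6 probe sets lower. Shank3, a scaffold gene prominent in striatal neurons, read 8.44, 9.48 and 9.71 in MCAO and 8.84, 9.76 and 9.80 in sham, lower in every pair (−0.26; adjusted p = 0.0914 with the block). Shank1 read 6.77, 6.92 and 6.99 in MCAO against 6.82, 7.02 and 6.78 in sham, a difference of 0.020 with full overlap.

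Nlgn1, the neuroligin of excitatory synapses, had the third most negative difference, −0.34 ± 0.158 (SE, n = 3 per group; limma adjusted p = 0.621, and 0.109 with the block). It read 8.01, 8.0 and 7.88 log2 in MCAO and 8.65, 7.97 and 8.31 in sham, so sham 2 lay within the MCAO values and sham 1 and sham 3 lay above them; of its 2 probe sets 1 read lower. Nlgn2, the neuroligin of inhibitory synapses, read −0.094, and Nlgn3, found at both kinds, −0.072. Each of these was lower in 3 of 3 pairs, by 0.032 to 0.16.

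The 97 probe sets of the 36 genes were mostly lower as well. Of these, 82 had a lower mean in MCAO, against 54.3% of the 34958 probe sets with 1 symbol. Without the block 0 passed in either direction, where 0% of all probe sets passed as lower and 0.644% as higher. With it 10 were lower and 1, that of Syngr1, was higher, against 0.609% and 3% of all probe sets. The 10 belong to Dlg2, Camk2a and Cplx2, with more than 1 each, and to Cplx1, Dlg4 and Syt1. Probe sets of the same gene are not independent. Of 28 genes with several probe sets, 19 had all of them lower. The share over all genes with several probe sets was not computed, so this count has no comparison.

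Arrays numbered 1 differed from the rest by more than MCAO from sham for a share of these genes near that of all genes. In 19 of 36 genes the gap between the array numbered 1 and the mean of the other arrays of its group exceeded the MCAO difference in both groups. The same held for 50.3% of all genes and for 5140 of the 9097 genes above the median gene, so it is not particular to the synaptic genes. The gap pointed down in both groups for 17 genes, led by Syn1, Shank3, Syp and Vamp2, up in both for 12, among them Syt4, Dlg4, Homer1 and Sv2b, and in opposite directions for 7. Across the 36 genes the gaps of the groups correlated at r = 0.73, and at 0.77 across all genes; genes of the same arrays share their libraries and are not independent. Dlg2 and Camk2a were exceptions: their gaps were 1.78 and 1.01 in MCAO and −0.031 and 0.0034 in sham. Dlg4 also had a larger gap in MCAO, at 1.11, than in sham, at 0.57. The median SE over the 36 genes was 0.127 without the block and 0.0714 with it.

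**Figure D4:**
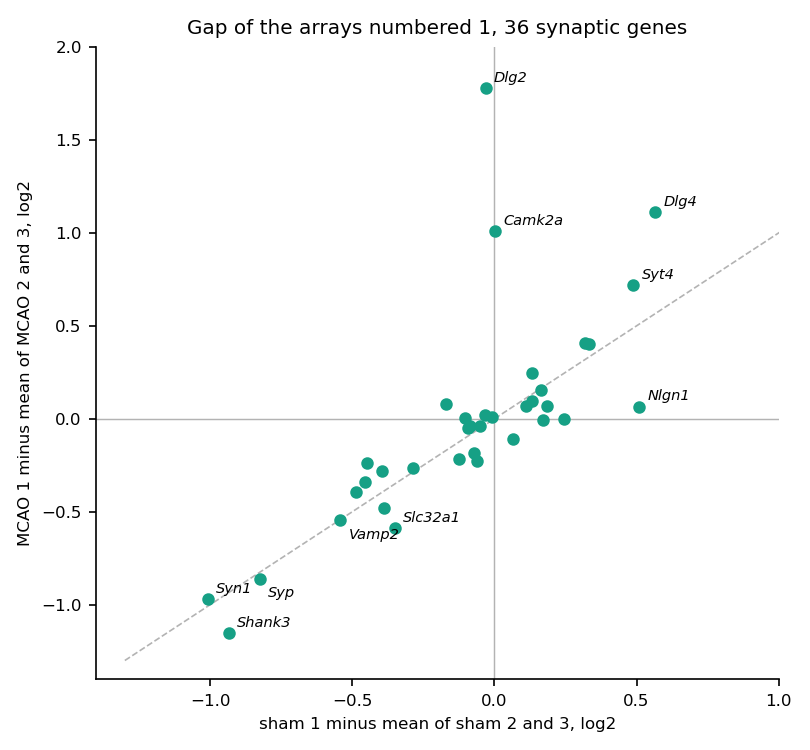
Gap between the array numbered 1 and the mean of arrays 2 and 3, in sham (x axis, log2) and in MCAO (y axis, log2), for the 36 synaptic genes, with a dashed line of equal gaps. Most genes lie near the line, from Syn1 and Shank3 at the lower left to Syt4 toward the upper right. Dlg2, Camk2a and Dlg4 lie well above it, with Dlg4 furthest to the right.

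Other synaptic genes were mostly lower too. A wider list of 84 genes of vesicle release and recycling, active zone, postsynaptic density and synaptic adhesion held 77 that were measured, of which 63 were lower in MCAO, with a median of −0.14, against 52.3% of all genes lower. Without the block 0 passed in either direction by limma (9 lower and 0 higher at an unadjusted p under 0.05, against 2.46% of all genes lower). With the block 6 fell (Syt9, Lin7a, Dnm1, Dnm3, Cnksr2 and Lrrtm3) and 0 rose, against 1.3% and 4.82% of all genes. The smallest p-values without it belonged to Syn3, a synapsin (−0.27, adjusted p = 0.242), Dnm3, a dynamin that cuts recycling vesicles free (−0.26, 0.298), and Cnksr2, a postsynaptic scaffold (−0.34, 0.372). Among those higher they belonged to Apba2, Homer3 and Syt13, at 0.12, 0.11 and 0.11 (adjusted p = 0.836, 0.867 and 0.876). All 9 genes of vesicle recycling and all 7 of adhesion had a lower mean.

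Markers of neurons also read mostly lower, and those of microglia higher. Of all genes 52.3% had a lower mean. Without the block 0.0165% of all genes fell and 1.12% rose by limma, and with it 1.3% fell and 4.82% rose. Of 14 general neuronal markers 13 were lower, with a median of −0.10, and 0 passed without the block; with it Nefm (−0.51) and Nefl (−0.31), the neurofilaments of axons, fell. Of 11 striatal neuron markers 11 were lower, with a median of −0.20; 0 passed without the block, and with it the dopamine receptor gene Drd1 (−0.34; limma adjusted p = 0.101 and 0.0179) and the cyclase gene Adcy5 (−0.27; 0.356 and 0.0404) fell. The mean log2 level of the striatal list ran from 11.11 to 11.32 in MCAO and from 11.37 to 11.59 in sham. Of 6 cortical markers 6 were lower (median −0.096); 0 passed without the block, and with it Rorb fell (−0.51; limma adjusted p = 0.801 and 0.00561). The mean level of the synaptic genes ran from 9.23 to 9.37 in MCAO and from 9.43 to 9.59 in sham, without overlap between the groups. These means include the large falls of Dlg2 and Camk2a in MCAO 2 and MCAO 3, and were not computed without these genes. The separation therefore cannot be read as one of the whole list. By the median over genes of the level minus the sham mean, the closest arrays were MCAO 3 at −0.0715 and sham 2 at −0.0542.

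Of 9 microglial markers 9 were higher, with a median of 0.65. Without the block 4 rose (C1qc by 1.51, C1qa by 1.39, C1qb by 1.37 and Aif1 by 1.10), against 1.12% of all genes. With it 8 rose, against 4.82% of all genes. Their mean level ran from 9.03 to 9.46 in MCAO and from 8.34 to 8.45 in sham. Of 9 astrocyte markers 6 were higher (median 0.16). Their mean level ran from 10.52 to 10.63 in MCAO and from 9.94 to 10.11 in sham. It includes the large rise of Gfap and was not computed without that gene. By the median over genes of the level minus the sham mean, MCAO 1, 2 and 3 lay at 0.815, 0.045 and 0.145. On that measure sham 1, 2 and 3 lay at 0.084, 0.014 and −0.0031, so the groups overlapped. Aldh1l1 and Aqp4 rose without the block, and Slc1a3 and Gfap, the filament gene of reactive astrocytes, rose as well with it. Gfap had the largest difference of these markers, 2.69, without overlap between the groups (limma adjusted p = 0.140, and 5.62e-07 with the block). Of 7 oligodendrocyte markers 5 were lower and 0 passed, with or without the block (median −0.11). Arrays give no true 0; 8 of 9 microglial and 9 of 9 astrocyte markers lay above the median gene. Of 8 neuroblast markers 7 and of 6 ependymal markers 6 had a higher mean (medians 0.13 and 0.25); 0 passed without the block, and with it Cd24a (0.66) and Rarres2 (0.30) rose, 1 in each list. Of 6 endothelial markers 5 were higher (median 0.15), and 0 passed with or without the block. The part of these cell types in the lower synaptic signal was not tested, and in bulk tissue fewer neurons and less RNA per neuron cannot be told apart.

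**Figure D5:**
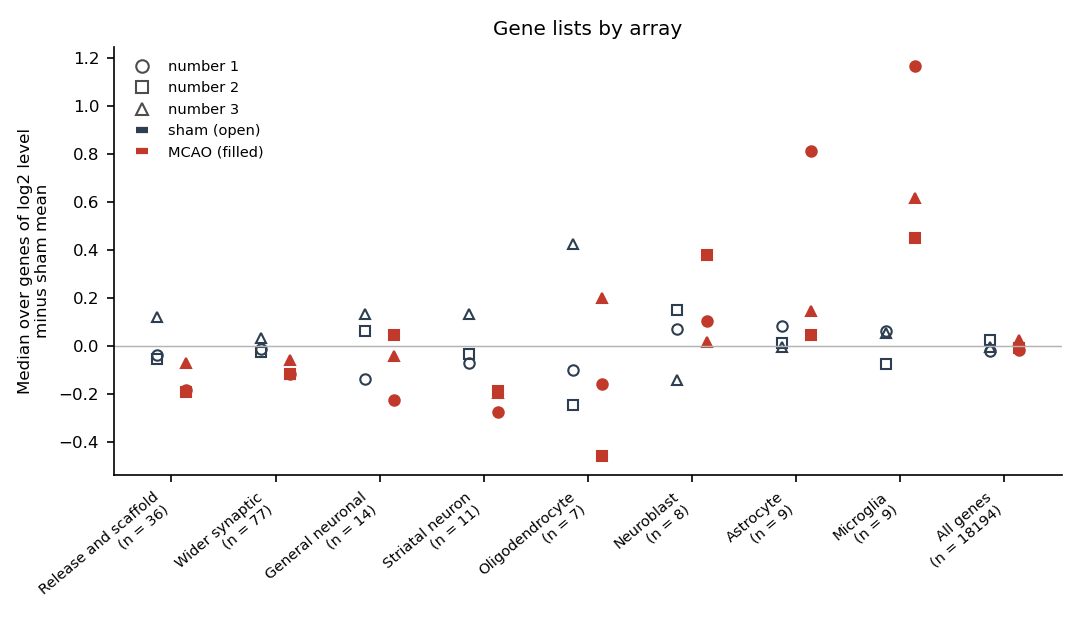
Median over genes of the log2 level minus the gene's sham mean (y axis) for each gene list and array, with sham open, MCAO filled and the sample number as the symbol. The 3 MCAO arrays lie below the 3 sham arrays for the synaptic and striatal lists and above them for microglia, with all genes near 0.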

How the data were processed

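The deposited values are log2 expression values, 1 for each of 45101 probe sets on 6 arrays; how the authors corrected background, summarised probes and normalized is not given in the sources used here, the log base was inferred from the range of the values, and a logarithm that compresses low values cannot be told apart. Quantile normalization between arrays was added. The array's annotation table gave 1 gene symbol to 34958 probe sets, and the brightest stood for each of 18194 genes. MCAO and sham were compared in R 4.3.3 with limma 3.58.1 (eBayes after lmFit, 2-sided), with Benjamini-Hochberg adjustment over all genes at 0.05; the fit was tested on simulated data. The number of arrays limits the precision.

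For the block, sample numbers were taken to pair the arrays because same-numbered arrays deviated from their group means together. The correlations over genes were 0.77, 0.44 and 0.48 for numbers 1, 2 and 3. Deviations within a group sum to 0, so a shift shared by the arrays numbered 1 alone also raises the values of numbers 2 and 3. Those values are therefore no separate evidence of pairing. Unlike numbers were not correlated, and the block was chosen from the data it was applied to. Members and lists were chosen with earlier results of these data known. Values in every array are given for members past the threshold with or without the block, for the 3 largest differences in each direction, and, chosen after their values were seen, for Snap25, Syt1, Syn1, Syp, Pclo, Slc32a1, Shank3 and a probe set of Syngr1. Of other lists, members that passed or those with the smallest p are named. Alternatives changed the normalization, the probe set, the filter on dim genes, the variance trend, the block and the arrays used.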

Additional observations from a re-analysis of the deposited data

How the results depend on the processing

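Across 18 alternatives the median difference of the synaptic genes stayed below 0 and 0 of them rose. Of 645 values of single genes, 587 kept their direction and side of the threshold, 19 passed where they had not, and 39 had the opposite sign; 22 of the 36 genes kept their direction throughout. The count that fell, 0 in the report, was 3 with the replicate block, 2 with that block on unmodified deposited values, and from 0 to 6 with arrays left out. With 1 number left out, a choice made after the data were seen, the block left 1 residual degree of freedom a gene and gave 3, 6 and 1 without numbers 1, 2 and 3, where 0.698%, 3.02% and 0.319% of all genes fell. For the wider list the count was 6 with the replicate block and from 0 to 14 with arrays left out (14 without number 2 and with the block, where those 3.02% of all genes fell), and its median was −0.095 when probe sets of a gene were averaged and from −0.15 to −0.086 with arrays left out. Signs turned for Sv2a (0.0049 on the values as deposited, with or without the block), Slc17a6 (−0.0081 after a shift of the arrays to equal medians), and, with probe sets averaged, Syp (0.010) and Syngr1 (0.12). With arrays left out the ranges crossed 0 for Syn1 (−0.43 to 0.23), Syp (−0.31 to 0.25), Shank3 (−0.57 to 0.13), Vamp2 (−0.27 to 0.10), Nlgn2 (−0.26 to 0.042), Sv2b (−0.23 to 0.018), Syn2 (−0.17 to 0.018), Sv2a (−0.091 to 0.046), Slc17a7 (−0.11 to 0.0001), Slc17a6 (−0.048 to 0.089), Syt11 (−0.044 to 0.17), Shank1 (−0.076 to 0.092) and Camk2b (−0.16 to 0.082); among these, Slc17a6 read −0.0084 without number 1 and −0.0468 without sham 2, Shank1 −0.0283 without MCAO 3, and Camk2b −0.142 without number 2 and with the block. The cause was not tested.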
